A study of Homo sapiens with 6 samples.

Results

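Matrix metalloproteinases (MMPs), ADAM sheddases and their inhibitors were examined in NB4 cells, an established line from human acute promyelocytic leukemia. The members were chosen by name: MMP9, MMP25, MMP14, TIMP1, TIMP2, TIMP3, ADAM8, ADAM10, ADAM17 and RECK, 10 in all. Of these, 9 were found among the 18625 genes of the table, and TIMP3 was absent from the rows analysed here. The cells were treated for 3 days with the solvent DMSO alone or with Tanshinone I (Tan I), a lipid-soluble diterpene of Salvia miltiorrhiza, at 10 μM, with 3 RNA-seq libraries per group. The study asked how Tan I, described there as an inhibitor of the histone methyltransferase EZH2, acts on leukemia cells, and MMP9 was one of its candidate downstream genes. Both groups were the same line grown in RPMI-1640 medium with serum. All results concern this line, and nothing in the labels says that the libraries of a group came from separate cultures.

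MMPs are zinc-dependent endopeptidases that are made as inactive proenzymes and cleave extracellular matrix and other secreted proteins. ADAMs are membrane-anchored relatives that release the outer part of cell surface proteins, a step called shedding. TIMPs are small secreted proteins that block the active site of these enzymes, and RECK is a membrane-anchored MMP inhibitor. In the myeloid lineage, MMP9 and MMP25 are known as products of maturing neutrophils.

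Values are normalized counts, that is, reads per gene divided by one size factor per library. DMSO libraries held 25356503 to 31679138 reads over the genes of the table, and Tan I libraries held 21502760 to 24298627. The libraries were spread along a first principal component (PC1) that held 70.8% of the variance of the 16887 genes tested, with scores of -48.0, 41.1 and -26.7 for DMSO replicates 1, 2 and 3 and of -46.8, 8.65 and 71.6 for Tan I replicates 1, 2 and 3. Of 6 promyelocyte markers, 5 were analysed here, with a summed level of 70959 to 76923 normalized counts in DMSO and 41825 to 50123 in Tan I. Most of that sum came from MPO, the granule enzyme myeloperoxidase. The granule gene CTSG was also lower in every Tan I library, at 839 to 1496 normalized counts against 1536 to 2392 in DMSO. The granule genes AZU1 and PRTN3 overlapped between groups. The surface marker CD33 averaged 3712 under DMSO and 3903 under Tan I, and ELANE was not analysed here. Of 18 markers of erythroid, T, B, monocytic and fibroblast cells, 8 were analysed here, and their sum was 660.2 to 756 in DMSO and 632 to 898 in Tan I. In these bulk libraries, fewer cells of a type and less RNA per cell cannot be told apart, and the part of the lower MPO level in the results below was not tested.

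The members had been picked with values of this same comparison in view, so their differences are given as a description. The calls of members below are not read as tests of them. Of the 9 members, 3 lay entirely higher in Tan I than in DMSO (MMP9, MMP25 and MMP14), and 0 lay entirely lower. Such separation was seen for 7.89% of all genes tested, with Tan I on the higher side for 3.92% and on the lower side for 3.97%. The median log2 fold change was 0.27 over the 9 members and -0.0016 over all genes tested. The same 3 members met the study's thresholds in limma (unadjusted p of at most 0.05 and absolute log2 fold change of at least 0.25), which 2.42% of all genes met, 1.32% higher and 1.10% lower in Tan I. Nothing is read from these counts, since the choice of members used them. With Benjamini-Hochberg adjustment, limma called 0 of the 9 members and 0 of the 16887 genes, of which 410 (2.43%) had an unadjusted p of at most 0.05; edgeR also called 0 of each, and DESeq2 called 16 genes, MMP25 among them. When PC1 was added to the model, a choice made after seeing the data, limma called 194 genes with adjustment, including 4 members (MMP9, MMP25, MMP14 and TIMP1). Nothing is read from the members among these adjusted calls either, since they were picked from the same comparison.

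**Figure D1:**
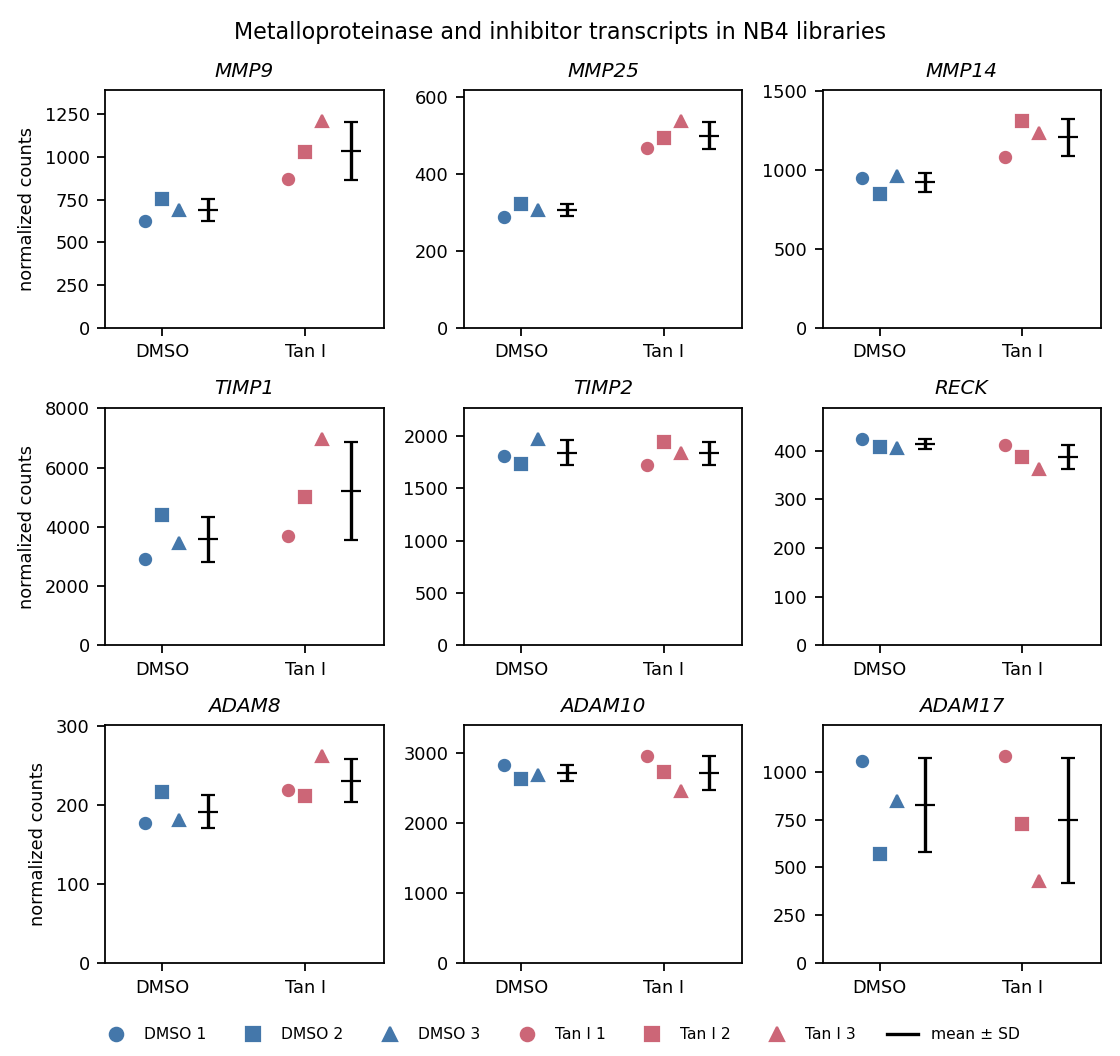
Normalized counts of the 9 members in each library, with replicate number shown by marker shape, DMSO in blue, Tan I in red, and bars for the mean ± SD of 3 libraries. MMP9, MMP25 and MMP14 show no overlap between groups, while ADAM17 ranges from 429 to 1080.1 normalized counts with both groups spread over that range.

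Among the proteases, MMP25, a leukocyte MMP anchored to the membrane by a lipid tail, showed the largest difference of the 9 members. MMP25 had 289, 322 and 307 normalized counts in DMSO replicates 1, 2 and 3 and 467, 493 and 537 in Tan I replicates 1, 2 and 3. The groups were far apart, and the spread within each was narrow. The means were 306 ± 16.4 and 499 ± 35.5 (SD, n = 3 each), a 1.63-fold difference with a log2 fold change of 0.70 and a standard error of 0.13. Over 17 alternative settings the log2 fold change of MMP25 lay between 0.64 and 0.75. The other filters, the fit without trend and the replicate block could not change this estimate.

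MMP25 (ENSG00000008516) spans bases 3046062 to 3060726 of chromosome 16 (GRCh38, + strand). The antisense gene MMP25-AS1 runs from 3037400 to 3059370 on the other strand and shares 1454 exonic bases with MMP25, 30.6% of its exon length. MMP25-AS1 itself had 749.7, 670.4 and 726 normalized counts in DMSO replicates 1, 2 and 3 and 1058, 1001 and 797 in Tan I replicates 1, 2 and 3. It was thus also higher in every Tan I library, with a log2 fold change of 0.40 and a standard error of 0.14. The strand setting of the counting is not given in the sources used here, so reads of this pair in the shared exons cannot be told apart.

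MMP9, or gelatinase B, is a secreted enzyme that cleaves denatured collagen and type IV collagen and is stored in neutrophil granules. MMP9 had 623, 751 and 687 normalized counts in DMSO replicates 1, 2 and 3 and 868, 1031 and 1209.6 in Tan I replicates 1, 2 and 3. The highest DMSO library was replicate 2 and the highest Tan I library was replicate 3, which are also those with the highest PC1 scores of their groups. The log2 fold change was 0.58 with a standard error of 0.15. It was 0.46 without Tan I replicate 3, 0.70 without Tan I replicate 1 and 0.50 with PC1 as a covariate. The antisense gene SLC12A5-AS1 shares 430 exonic bases with MMP9 (18.4% of its exon length), but its mean was only 25.3 ± 4.48 normalized counts for DMSO against 31.8 ± 7.43 for Tan I (SD, n = 3).

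MMP14 is a transmembrane MMP that cleaves collagen at the cell surface and activates the proenzyme of MMP2. It had 950.2, 849.5 and 963 normalized counts in DMSO replicates 1, 2 and 3 and 1080.1, 1309 and 1234 in Tan I replicates 1, 2 and 3. The lowest Tan I library, replicate 1, stood just above the highest DMSO library. The means were 921 ± 62.3 and 1208 ± 117 (SD, n = 3 each), with a log2 fold change of 0.39 and a standard error of 0.12. MMP14 did not meet the thresholds without Tan I replicate 2, where its log2 fold change was 0.33.

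**Figure D2:**
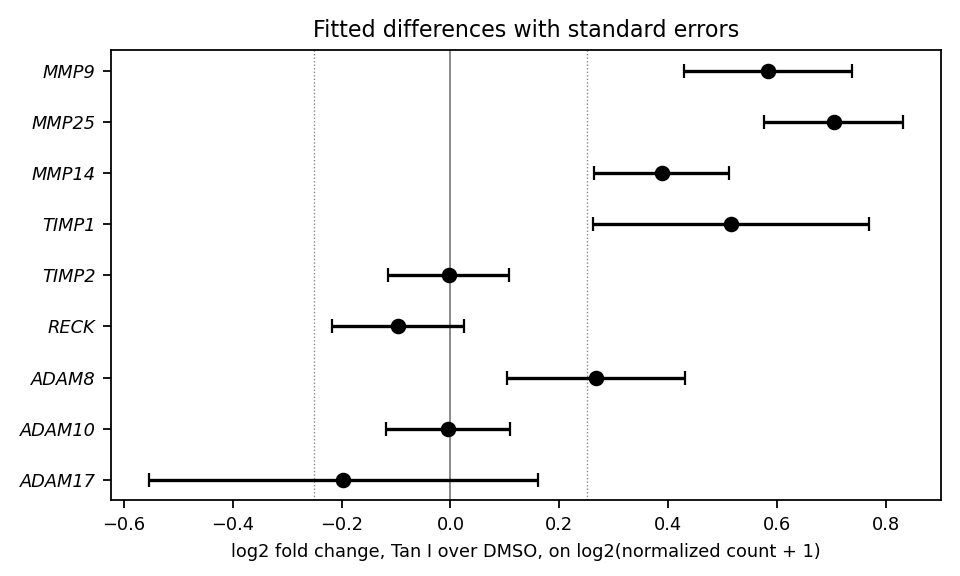
Fitted log2 ratio of Tan I to DMSO for the 9 members on the log2(normalized count + 1) scale, with points for the limma estimate, bars for its standard error, a grey line at 0 and dotted lines at 0.25 on either side. MMP25, MMP9, TIMP1 and MMP14 stand highest at 0.70, 0.58, 0.51 and 0.39, TIMP1 with a standard error of 0.25, while TIMP2 and ADAM10 sit at 0.

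Promoter sequences were looked up for the members as a feature that the choice of genes had not used. RefSeq promoter entries on GRCh38.p14 were matched for 7 of the 10 members; MMP9, MMP25 and TIMP2 had none. The 250 bases before each start were searched on both strands for the GC box GGGCGG, the AP-1 site TGANTCA, an NF-kB-like pattern (GGG and CC with any 5 bases between) and the AHR core GCGTG, where matches of different motifs may overlap. The sequences of MMP14, TIMP1, RECK and ADAM8 are shown. Their log2 fold changes were 0.39, 0.51, -0.10 and 0.27, and among them only MMP14 had groups that did not overlap. Capitals mark the GC boxes on either strand, and the sequences of MMP14 and TIMP1 stop where the first annotated exon begins.
MMP14, chr14:22836335-22836559, + strand: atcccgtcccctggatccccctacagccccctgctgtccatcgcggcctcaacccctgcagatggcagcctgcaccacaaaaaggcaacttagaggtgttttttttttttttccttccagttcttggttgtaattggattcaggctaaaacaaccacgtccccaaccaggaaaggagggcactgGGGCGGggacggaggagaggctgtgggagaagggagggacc
TIMP1, chrX:47582186-47582407, + strand: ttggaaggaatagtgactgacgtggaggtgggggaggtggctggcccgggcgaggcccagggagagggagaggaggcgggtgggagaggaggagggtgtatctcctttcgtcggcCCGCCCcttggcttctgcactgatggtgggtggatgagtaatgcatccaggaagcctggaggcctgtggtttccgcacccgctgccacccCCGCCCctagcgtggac
RECK, chr9:36036663-36036912, + strand: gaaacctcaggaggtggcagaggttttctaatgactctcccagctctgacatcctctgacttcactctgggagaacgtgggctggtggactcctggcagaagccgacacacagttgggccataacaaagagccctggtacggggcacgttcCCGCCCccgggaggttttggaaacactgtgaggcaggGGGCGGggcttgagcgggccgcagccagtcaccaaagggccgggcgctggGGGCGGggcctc
ADAM8, chr10:133276869-133277118, - strand: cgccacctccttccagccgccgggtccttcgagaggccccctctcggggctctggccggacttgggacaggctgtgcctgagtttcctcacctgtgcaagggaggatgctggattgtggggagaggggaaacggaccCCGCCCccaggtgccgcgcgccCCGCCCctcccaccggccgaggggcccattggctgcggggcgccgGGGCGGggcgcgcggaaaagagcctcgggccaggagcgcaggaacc

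Each of the 7 promoters held at least 1 GC box, from 1 in MMP14 and ADAM10 to 5 in TIMP3, while 42.6% of all 35116 promoters of that length held one. The AP-1 letters were in 0 of the 7 and in 6.57% of all promoters. AP-1 sites that differ from these letters were not searched for. The NF-kB-like pattern was in 6 of the 7 (54.4% of all promoters), ADAM8 being the exception, and the AHR core was in TIMP1, TIMP3, ADAM10 and ADAM17 (32.2% of all promoters). MMP14 had the fewest CG dinucleotides, 7 in 250 bases, followed by TIMP1 and RECK with 12 each, and ADAM17 had the most with 31. The median over all promoters was 11, with quartiles of 3 and 23.

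Among the inhibitors, TIMP1, a secreted inhibitor that also binds the proenzyme of MMP9, was the most abundant member per kilobase of transcript in every library. TIMP1 had 2909, 4407 and 3441 normalized counts in DMSO replicates 1, 2 and 3 and 3687, 5007 and 6973 in Tan I replicates 1, 2 and 3. The groups overlapped, since Tan I replicate 1 lay below DMSO replicate 2. The means were 3586 ± 759 and 5222 ± 1654 (SD, n = 3 each), with a log2 fold change of 0.51 and a standard error of 0.25. Tan I replicate 3, with the highest PC1 score, carried much of this difference: without it the log2 fold change was 0.28, and without Tan I replicate 1 it was 0.74.

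TIMP2, which inhibits MMPs and also links MMP14 to the proenzyme of MMP2, was level between the groups. Its libraries ran from 1734 to 1971 normalized counts in DMSO and from 1719 to 1941 in Tan I. The means were 1837 ± 121 and 1833 ± 111 (SD, n = 3 each), and the standard error of the log2 fold change was 0.11. RECK, the membrane-anchored inhibitor, ran from 406 to 424 normalized counts under DMSO and from 363 to 411 under Tan I. Its log2 fold change was -0.10 with a standard error of 0.12, and the groups overlapped through Tan I replicate 1.

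Levels of different genes were compared per kilobase of the canonical transcript. In DMSO, TIMP1 stood at 4663 ± 987 normalized counts per kilobase, followed by TIMP2 at 503 ± 33.2, MMP9 at 294 ± 27.5, MMP14 at 249 ± 16.8, ADAM10 at 243 ± 9.66 and ADAM17 at 188 ± 55.8 (SD, n = 3 each). RECK at 93.6 ± 2.23, MMP25 at 83.3 ± 4.45 and ADAM8 at 58.7 ± 6.50 were the lowest. Of these neighbours in DMSO, MMP14 and ADAM10 overlapped between libraries, as did ADAM10 and ADAM17. MMP25 and RECK changed places: MMP25 lay at 78.7 to 87.6 per kilobase in DMSO, below RECK at 92.1 to 96.2, and at 127 to 146 in Tan I, above RECK at 82.2 to 93.0. With the length of all annotated exons in place of the canonical transcript, RECK and MMP25 also changed places, but ADAM17 stood at rank 8 rather than 6 in DMSO. With that length MMP9 and TIMP2 were close in DMSO, at 294 and 296 per kilobase. In Tan I MMP9 then stood above TIMP2, at 444 against 295.

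The balance of protease and inhibitor transcripts was read from the same per-kilobase values. These percentages depend on the length used, here that of the canonical transcript. With all annotated exons, TIMP1 averaged 2480 per kilobase in DMSO rather than 4663, while MMP9 stayed at 294. MMP9 amounted to 7.05%, 5.61% and 6.57% of TIMP1 in DMSO replicates 1, 2 and 3 and to 7.75%, 6.78% and 5.71% in Tan I replicates 1, 2 and 3. The groups overlapped, with means of 6.41% ± 0.73 and 6.75% ± 1.02 (SD, n = 3 each). The sum of MMP9, MMP25 and MMP14 was 626 ± 20.9 per kilobase under DMSO against 906 ± 105 under Tan I, and that of TIMP1, TIMP2 and RECK was 5259 ± 971 and 7381 ± 2159 (SD, n = 3 each). The first sum was therefore 12.1% ± 1.84 of the second in DMSO and 12.7% ± 2.23 in Tan I, again with overlap. MMP14 relative to TIMP2, a ratio chosen after its values were seen, did not overlap: it was 51.9%, 48.4% and 48.2% in DMSO replicates 1, 2 and 3 and 62.0%, 66.5% and 66.2% in Tan I replicates 1, 2 and 3.

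**Figure D3:**
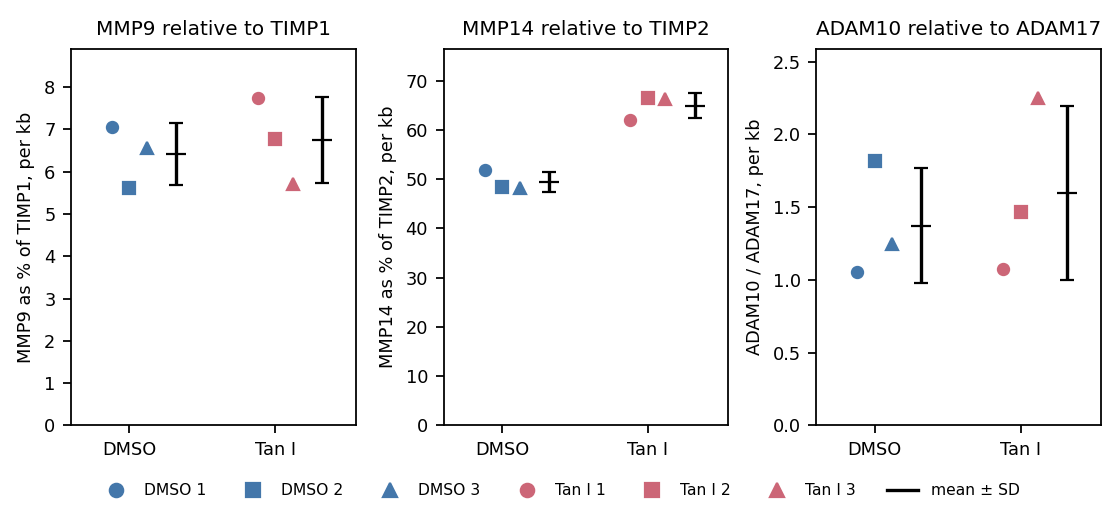
Ratios of members per kilobase of canonical transcript in each library, with marker shape for the replicate, DMSO in blue, Tan I in red, and bars for the mean ± SD of 3 libraries. MMP9 relative to TIMP1 and ADAM10 relative to ADAM17 overlap between groups, while MMP14 runs from 48.2% to 51.9% of TIMP2 in DMSO and from 62.0% to 66.5% in Tan I.

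Among the 3 member ADAMs, ADAM17, the sheddase that releases TNF from the cell surface, varied most between libraries. ADAM17 had 1056, 568 and 849 normalized counts in DMSO replicates 1, 2 and 3 and 1080.1, 729 and 429 in Tan I replicates 1, 2 and 3. Within each group its level fell as the PC1 score rose. The pair of libraries with the lowest PC1 scores, DMSO replicate 1 and Tan I replicate 1, had the highest levels. Tan I replicate 3, with the highest score, had the lowest. The log2 fold change was -0.20 with a standard error of 0.36. It moved to -0.51 without Tan I replicate 1 and to 0.15 without Tan I replicate 3, and it was 0.04 with PC1 as a covariate. IAH1, which lies on the opposite strand and shares 1645 exonic bases with ADAM17 (10.3% of its exon length), averaged 55.5 ± 24.7 normalized counts under DMSO against 42.9 ± 41.6 under Tan I (SD, n = 3).

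TIMP1 rose with the PC1 score within each group, although the order of both groups together did not follow PC1 throughout. It was lowest in DMSO replicate 1 and highest in Tan I replicate 3, at the ends of PC1. MMP25 also rose with the score within each group, and it stood higher in Tan I at both ends of PC1. DMSO replicate 1 and Tan I replicate 1 had nearly the same PC1 score, and this pair had 289 against 467 normalized counts for MMP25, 2909 against 3687 for TIMP1 and 1056 against 1080.1 for ADAM17. With PC1 in the model the log2 fold change of TIMP1 was 0.35. PC1 was computed from all genes tested, the members included, and its part in these values was not tested.

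**Figure D4:**
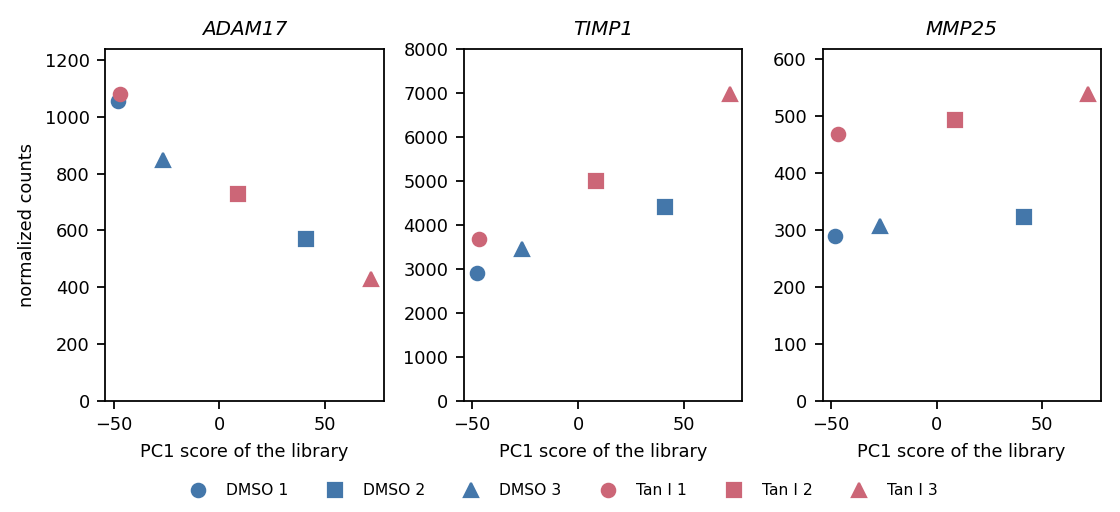
Normalized counts of ADAM17, TIMP1 and MMP25 in each library against the score of the library on the first principal component, with marker shape for the replicate, DMSO in blue and Tan I in red. ADAM17 is lowest (429) and TIMP1 highest (6973) in the library with the highest PC1 score. TIMP1 and MMP25 rise with the score within each group, and the MMP25 points form separate bands of 289 to 322 in DMSO and 467 to 537 in Tan I.

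ADAM10, the sheddase that cleaves Notch receptors, was level between groups, with 2829.98, 2619.8 and 2683 normalized counts in DMSO replicates 1, 2 and 3 and 2947, 2722 and 2458 in Tan I replicates 1, 2 and 3. Its log2 fold change was -0.0043 with a standard error of 0.11. ADAM10 per kilobase was 1.37 ± 0.40 times ADAM17 under DMSO and 1.60 ± 0.60 times under Tan I (SD, n = 3). ADAM8, a sheddase of leukocytes, had 177, 216 and 181 normalized counts in DMSO replicates 1, 2 and 3 and 219, 212 and 261 in Tan I replicates 1, 2 and 3. The groups overlapped by a single library, with DMSO replicate 2 above Tan I replicate 2, and the log2 fold change was 0.27 with a standard error of 0.16. It was 0.17 without Tan I replicate 3 and 0.36 without DMSO replicate 2.

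Genes that act around these members were read from 10 lists holding 173 symbols, of which 106 were among the rows analysed here and 102 reached the mean of 10 normalized counts needed for the test. In limma 6 of the 102 were called higher and 5 lower without adjustment, 10.8% against 2.42% of all genes tested. Some of these genes, such as THBS1 and TNFRSF1B, were known from earlier results of these data when the lists were written, so nothing particular to the lists is read from the share. With adjustment limma and edgeR called 0 of them, the smallest adjusted p from limma being 0.999, DESeq2 called 1, ADAMTS7, and limma with PC1 as a covariate called 8. The median log2 fold change over the 102 was 0.01.

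Among the other MMPs, 0 of the 9 tested were called by limma without adjustment, and edgeR and DESeq2 also called 0. MMP2, gelatinase A, was among the most abundant and averaged 825 ± 196 normalized counts under DMSO against 825 ± 147 under Tan I (SD, n = 3). MMP17 averaged 608 ± 51.9 and 629 ± 67.0. The neutrophil collagenase MMP8, the stromelysin MMP3 and the matrilysin MMP7 were among the list's symbols that could not be tested. The other ADAMs gave the same counts, 0 of 7 tested, with ADAM15 at 4474 ± 223 normalized counts under DMSO against 4882 ± 584 under Tan I and ADAM9 at 1107 ± 54.6 and 995 ± 118 (SD, n = 3 each). The escorts that carry ADAM10 or ADAM17 to the cell surface, the TspanC8 tetraspanins, the iRhoms and FRMD8, likewise gave 0 of 8 by limma, edgeR and DESeq2. Of these, TSPAN14 had 1061 ± 42.3 and 1011 ± 137 normalized counts and FRMD8 had 627 ± 70.8 and 591 ± 66.1 (SD, n = 3 each).

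Of 12 tested ADAMTS and ADAMTSL genes, which encode secreted relatives of the ADAMs, limma called 1 higher and 1 lower without adjustment. ADAMTS7, a protease of cartilage and vessel matrix, had 807, 789 and 696 normalized counts in DMSO replicates 1, 2 and 3 and 1216, 1278 and 1051 in Tan I replicates 1, 2 and 3. The groups were well apart, with a log2 fold change of 0.63 and a standard error of 0.13. ADAMTS15 was low, at 69.6 ± 9.43 normalized counts under DMSO against 46.6 ± 8.15 under Tan I (SD, n = 3), and its call was lost in 10 of 17 alternatives. ADAMTS10, the most abundant of this list, had 1901 ± 131 and 1812 ± 114.

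Proteases that activate the proenzymes, such as furin and the neutrophil serine proteases, gave 1 call among 6 tested, CTSG lower in Tan I. CTSG, the granule protease cathepsin G, had 1536, 2392 and 1801 normalized counts in DMSO replicates 1, 2 and 3 and 839, 1263 and 1496 in Tan I replicates 1, 2 and 3, with a log2 fold change of -0.69 and a standard error of 0.25. The groups came close, since Tan I replicate 3 lay just below DMSO replicate 1. The call of CTSG was lost without DMSO replicate 2, DMSO replicate 3 or Tan I replicate 1, and the value was -0.45 without the last of these. PRTN3, or proteinase 3, had 1992 ± 306 and 1634 ± 479 and FURIN had 2368 ± 308 and 2162 ± 73.4 normalized counts under DMSO and Tan I, respectively (SD, n = 3). Among other protease inhibitors, SERPINE2, an inhibitor of serine proteases, lay higher in every Tan I library, at 2362 ± 71.7 and 2659 ± 51.0 normalized counts under DMSO and Tan I (SD, n = 3), but its log2 fold change of 0.17 was below the threshold. CST3, the cysteine protease inhibitor cystatin C, had 1259 ± 263 and 1331 ± 403.

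Cell surface partners, which dock or clear MMPs or induce them in other cells, gave 1 call in each direction among 8 tested. THBS1, or thrombospondin 1, was higher in Tan I with a log2 fold change of 0.68 and a standard error of 0.16, and ADGRA2, an adhesion receptor that works with RECK, was lower at -0.38 with a standard error of 0.15. The call of ADGRA2 was lost in 8 of 17 alternatives. BSG, an inducer of MMPs, had 13594 ± 1260 and 14968 ± 3188 normalized counts, and ITGB2, a subunit of leukocyte integrins, had 3625 ± 294 and 4028 ± 369 (SD, n = 3 each). In the neutrophil granule cohort, the proteins stored beside MMP9 or made at the same stage, 1 of 9 tested was called. Defining proteins of the specific granules, LTF, LCN2, CEACAM8, OLFM4 and CRISP3, were among the symbols that could not be tested. CHI3L1, a chitinase-like protein, had 228, 262 and 241 normalized counts in DMSO replicates 1, 2 and 3 and 319.6, 385 and 368 in Tan I replicates 1, 2 and 3, again without overlap. CYBA, a subunit of the NADPH oxidase, had 3651 ± 717 and 4232 ± 1005, and QSOX1 had 3544 ± 499.9 and 4239 ± 890.3 (SD, n = 3 each).

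Of 18 tested proteins known to be shed, limma called 2 higher and 2 lower without adjustment. ICAM1, an adhesion molecule, and TNFRSF1B, a TNF receptor, were higher, with log2 fold changes of 0.55 and 0.78 and standard errors of 0.19 and 0.30. TNFRSF1B was low, at 24.0 ± 6.39 normalized counts under DMSO against 41.3 ± 6.12 under Tan I (SD, n = 3). With a pseudocount of 10 its log2 fold change was 0.60. IL6R, the interleukin 6 receptor, was lower: it had 450.4, 491 and 470.4 normalized counts in DMSO replicates 1, 2 and 3 and 328, 378 and 317 in Tan I replicates 1, 2 and 3. SORL1, a sorting receptor, was called lower at -0.63 with a standard error of 0.25, but its groups overlapped, its call was lost in 7 of 17 alternatives, edgeR among them, and the value was -0.39 without Tan I replicate 3. The call of TNFRSF1B was lost in 5 of 16 alternatives and that of ICAM1 in 4 of 17. TNF itself had 1850.1 ± 649 and 2324 ± 236 normalized counts and NOTCH2 had 2136 ± 549.9 and 1832 ± 616 (SD, n = 3 each). Of 17 regulators of the MMP9 promoter, including AP-1 and NF-kB subunits and the PRC2 core, limma, edgeR and DESeq2 called 0. With PC1 as a covariate, limma called 1 of them higher and 2 lower without adjustment, and 0 with it. EZH2 had 3522 ± 418 and 3653 ± 288 normalized counts, and JUN had 3951 ± 2168 and 3714 ± 284 (SD, n = 3 each), with DMSO replicate 2 the lowest library at 1560.3.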

How the data were processed

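RNA-seq was performed by the authors on NB4 cells after DMSO or Tan I (3 libraries each). According to the study's methods, paired-end reads were aligned to GRCh38 with STAR, multi-mapping reads were removed, and reads were counted with featureCounts; versions, annotation release and strand setting are not given in the sources used here. The authors deposited signal values per gene, namely read counts scaled by a size factor for each library; their own comparison (log2 fold change, its error, a Wald score, an unadjusted and an adjusted p-value) and mean column, also deposited, were not used. In each library 100% of values were whole multiples of the smallest (tolerance 0.001), so reads were recovered. No pair of libraries agreed within sampling noise (lowest chi-square per gene 6.37).

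Groups came from the sample titles. Genes whose mean reached 10 (16887) were tested with limma 3.58.1 (R 4.3.3; eBayes with trend) on log2(value + 1), with Benjamini-Hochberg adjustment; this scale understates changes of low genes, and p-values measure only the spread between these libraries, which may be technical. The members and lists were chosen with earlier results of these data known. Named genes were all members, up to 4 called genes by p in each list, and the 2 with the highest mean. Alternatives were other pseudocounts (0.1, 10), no filter or a mean of at least 50, quantile or total scaling, no trend, edgeR 4.0.16 and DESeq2 1.42.0 on recovered reads, a replicate block, each library left out, and, added after seeing the data, PC1 as a covariate. Positions and lengths were from GENCODE release 44 (99.6% of identifiers matched). Tests were checked on simulated reads drawn independently for each gene. These lacked the shared spread along PC1 of the real libraries, so the check does not cover it. The planned protein motifs were not analysed here. One related gene that met the rule is not reported here.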

Additional observations from a re-analysis of the deposited data

How the results depend on the processing

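The number of genes called without adjustment (408) and of related genes called (11) stayed within 1.5 times under the alternatives that kept all libraries, PC1 as a covariate aside. Leaving out 1 library gave 160 genes (without Tan I replicate 2) to 1496 (without Tan I replicate 1) and 6 to 21 related genes; the count was 180 without DMSO replicate 1, 201 without DMSO replicate 3 and 271 without Tan I replicate 3, with 7, 6 and 7 related genes. With PC1 as a covariate, chosen after seeing the data, 1496 genes and 19 related genes were called, and 194 with adjustment, among them MMP9, MMP25, MMP14, TIMP1 and 8 related genes; DESeq2 called 16 with adjustment and gave no adjusted p for 1965 genes. The remaining alternatives called 0 with adjustment, as limma did. Rescaling to the same total moved the split from 223 higher and 185 lower to 188 and 250. Between 2 and 4 members met the unadjusted thresholds: MMP14 was lost without Tan I replicate 2, and TIMP1 was gained with DESeq2, the replicate block, PC1 as a covariate, and without DMSO replicate 2 or Tan I replicate 1. The cause of these moves was not tested. The replicate numbers did not pair the libraries (correlations of deviations 0.75, -0.09 and -0.45 for numbers 1, 2 and 3), and with a replicate block 348 genes and 9 related genes were called.

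Of the members, TIMP2, ADAM10 and ADAM17 took either sign over the alternatives, and the other 6 kept theirs. Among related genes, sign changes were seen for those near 0: MMP2 gave -0.0098 with quantile normalization, -0.052 with rescaling, -0.0045 in edgeR, -0.0025 in DESeq2 and -0.11 with PC1; CST3 gave -0.0033 with rescaling and -0.10 with PC1; with rescaling EZH2 gave -0.0027 and MMP17 -0.012; JUN gave -0.093 in edgeR and -0.094 in DESeq2. Leaving out 1 library gave -0.11 to 0.19 for MMP2, -0.17 to 0.27 for CST3, -0.038 to 0.11 for MMP17, -0.046 to 0.12 for EZH2, -0.015 to 0.30 for BSG, -0.49 to 0.0053 for NOTCH2 and -0.18 to 0.013 for TSPAN14. JUN ran from -0.46, past the unadjusted threshold, without DMSO replicate 2 to 0.48.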
